A study of Mus musculus with 7 samples.

Results

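H3K79me2, the dimethylated form of lysine 79 of histone H3, was followed within single genes for the 468 protein-coding genes in which the mark was broken into the most pieces. Each region of chromosomes 1 to 19 in the deposited count table was assigned to the RefSeq coding gene that it overlapped longest, and a gene was taken as split when it carried 10 or more regions. The 468 split genes stood among 8548 coding genes with a region and carried 8265 of the 29397 regions of the table. Of these, 5572 were longer than 500 bp and shorter than 30000 bp and form the set described here. In each gene the region with the highest mean count over the 6 libraries is called the lead region, which gave 468 lead regions and 5104 other regions. The 2555 regions of 500 bp and the 138 regions of 30000 bp or more in the same genes were outside the set. In the 121 split genes that have such a broad region, the lead is the first only among the shorter pieces.

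The libraries came from macrophages differentiated out of the bone marrow of C57BL/6 mice with L929-conditioned medium, which supplies the growth factor M-CSF, over 7 to 8 days. SGC0946, a small-molecule inhibitor of the methyltransferase DOT1L, was present at 1 µM during differentiation in one group and its solvent DMSO in the other, with 3 libraries each that the series' design text calls biological replicates. All 6 used the antibody clone NL59 on formaldehyde-fixed chromatin. The growth protocol speaks of wild-type and knockout donors without tying either to a library, and age, sex and the number of mice per library are not given in the sources used here. The input library was not analysed here.

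DOT1L is the enzyme that places this mark, and it acts on nucleosomes of genes that are being transcribed. The mark is known to be strongest in the first part of a transcribed gene, behind the promoter, and to thin out along the gene body. In a long gene a region caller can therefore return a dense stretch near the start and a chain of small regions further on.

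The stretches of DNA just before the start are shown for 6 split genes whose lead region lies over the annotated start, so that the promoters of genes with opposite changes can be set side by side. Among such genes with a call and a mean of at least 50 counts outside the lead, Nrp2 and Lrp1 have the largest positive and Vti1a and Mast2 the largest negative difference between the lead and the other regions. Papola and Map3k3 have the highest lead counts. Each is the run of 200 bases before the start in RefSeq (GRCm38.p6, the assembly that mm10 names), written 5′ to 3′ on the strand of the gene. Capitals mark GGGCGG (the GC box), GAGGAA (an ETS-type motif, here without its variants) or TATAAA on either strand, overlapping matches included.
Nrp2 (chr1:62703117-62703316, strand plus): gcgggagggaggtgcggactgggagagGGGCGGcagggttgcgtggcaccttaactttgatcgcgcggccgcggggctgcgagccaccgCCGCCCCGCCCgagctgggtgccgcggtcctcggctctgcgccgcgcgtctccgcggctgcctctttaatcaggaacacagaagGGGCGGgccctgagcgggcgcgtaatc
Lrp1 (chr10:127621149-127621348, strand minus): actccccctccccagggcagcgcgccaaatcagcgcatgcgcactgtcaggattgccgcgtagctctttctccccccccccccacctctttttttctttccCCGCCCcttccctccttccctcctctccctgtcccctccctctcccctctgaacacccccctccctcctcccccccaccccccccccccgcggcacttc
Vti1a (chr19:55315857-55316056, strand plus): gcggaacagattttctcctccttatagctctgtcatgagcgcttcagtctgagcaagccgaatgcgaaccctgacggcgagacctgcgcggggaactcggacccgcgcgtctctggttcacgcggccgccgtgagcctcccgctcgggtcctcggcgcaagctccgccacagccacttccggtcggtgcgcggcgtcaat
Mast2 (chr4:116464182-116464381, strand minus): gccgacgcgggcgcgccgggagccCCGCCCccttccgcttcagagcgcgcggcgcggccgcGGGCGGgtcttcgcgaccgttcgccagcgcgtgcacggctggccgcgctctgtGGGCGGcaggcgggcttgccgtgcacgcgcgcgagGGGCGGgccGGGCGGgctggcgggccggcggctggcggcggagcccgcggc
Papola (chr12:105784497-105784696, strand plus): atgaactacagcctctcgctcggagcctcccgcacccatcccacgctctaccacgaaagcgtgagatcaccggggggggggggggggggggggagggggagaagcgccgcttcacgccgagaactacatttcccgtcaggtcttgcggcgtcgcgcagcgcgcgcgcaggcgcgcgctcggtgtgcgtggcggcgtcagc
Map3k3 (chr11:106084387-106084586, strand plus): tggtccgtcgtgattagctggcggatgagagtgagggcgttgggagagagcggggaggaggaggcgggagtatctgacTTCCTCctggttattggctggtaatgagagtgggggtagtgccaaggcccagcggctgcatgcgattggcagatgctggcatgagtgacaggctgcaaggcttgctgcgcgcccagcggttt
GGGCGG occurred in Nrp2 (4 matches), Mast2 (5) and Lrp1 (1), and in 31.0% of the 32851 promoter windows of the same length. GAGGAA occurred in Map3k3 (1 match) and in 19% of all windows, and TATAAA in none of the 6 against 9.96% of all. The dinucleotide CG was counted 27 times in Nrp2 and in Papola, 26 in Vti1a, 42 in Mast2, 11 in Map3k3 and 9 in Lrp1, against a median of 5 over all windows (middle 50% from 2 to 13). Both directions of change thus include a promoter with several GC boxes, Nrp2 and Mast2, and no match says only that these letters are not in the window.

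Library totals here are counts summed over the 29397 regions of the table. They were 16.7 to 19.5 M with DMSO and 2.95 to 3.13 M with SGC0946. They are not all reads of a library, for which a nominal 40 M is given in both groups. The 5572 regions held 7.55 to 7.66% of the total of a DMSO library and 6.18 to 6.87% of that of an SGC0946 library. A share of the library is below a share of this total. Replicates of a group differed by more than sampling noise over these regions (chi-square per degree of freedom from 1.12 to 1.80). Of 12 macrophage markers 11 had a region, with a median density of 187 counts per kb in the densest one under DMSO. Of 16 markers of other blood cells 3 had one (Klf1, Lck and Mpo, at most 9.33 counts per kb), and Cxcl12 and Runx2 were the 2 with one among 12 markers of stroma and endothelium (at most 54.3). The summed count of the other blood markers was 10 to 16 with DMSO and 23 to 37 with SGC0946, that of the stromal markers 273 to 340 and 71 to 87, and that of the macrophage markers 45629 to 51902 and 12732 to 14271. The part of these cells in the results was not tested. Among the markers only Adgre1, which encodes the macrophage surface protein F4/80, is a split gene.

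Split genes were long genes, and their interrupted cover follows from the rule of 10 or more regions. Their median span was 147 kb (from 38.3 to 1037 kb), against 40.0 kb for genes with 2 to 9 regions, and the regions of all lengths covered a median of 30.1% of that span against 36.7%. The median cover was 24.1% in the 347 split genes without a region of 30000 bp or more and 56.8% in the 121 with one. The median gene had 14 regions, 10 of them in the length range used, with gaps of a median 1.31 kb between neighbouring regions. The most divided genes were Snx29 with 73 regions, Foxp1 with 61, Arhgap24 with 60, and Cadm1 and Cdk14 with 52 each. With DMSO the median lead region had 84.1 counts per kb and the median other region 38.0, and with SGC0946 they had 10.9 and 7.08. For scale, the sparsest 5% of all regions had 19.8 to 24.3 counts per kb in the DMSO libraries and 2.81 to 4.04 in the SGC0946 libraries.

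In both kinds of region most counts were gone with SGC0946, and the median lead region kept a smaller fraction than the median other region. These are raw counts of libraries whose totals differ several-fold, and loss of the mark cannot be told apart here from a lower yield or depth of the SGC0946 libraries. The mean SGC0946 count was a median of 13.4% of the mean DMSO count in lead regions (from 7.80 to 30.5%) and of 17.3% in the others (middle 50% from 14.3 to 21.4%). When counts were summed over regions, the fractions were close, at 14.4% in the leads and 15.0% in the others. On unscaled counts, for which no spike-in is named, 5449 of the 5455 regions that passed the filter on low counts were called lower by edgeR's quasi-likelihood test (adjusted p under 0.05) and 0 higher. The falls include all 468 lead regions. The same call was made for 99.7% of all tested regions as a fall and for 0.0201% as a rise, so this count is that of the whole table. The median log2 change was -2.90 for the leads and -2.52 for the others.

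As a share of their library, lead regions went down, and the median of the others stayed near that of the whole table. With counts scaled to the library total, 292 lead regions were lower and 19 higher, with a median log2 change of -0.35. Of 4911 other regions tested, 417 were lower and 137 higher, with a median of 0.02. Over all 23367 regions tested, 23.3% were lower and 6.16% higher and the median was -0.09. In genes with 2 to 9 regions, 1611 of 3002 lead regions were lower and 257 higher, with a median of -0.31. Of the calls in split genes 18% were rises, against 37.3% with TMM factors, 40.9% with DESeq2 size factors and 5.62% with scaling to the sparsest 25% of regions, settings that brought the median of all regions to 0.05, 0.06 and -0.28. The median of the leads of split genes was below 0 under each of these scalings (-0.22, -0.20 and -0.54), whereas that of their other regions turned from 0.16 and 0.17 to -0.18.

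The comparison inside a gene does not depend on such scaling, because the lead and the other regions are read from the same library. Shares here and below are of the gene's counts in regions longer than 500 bp and shorter than 30000 bp, so counts in its 500 bp and broad regions are not in the denominator. The lead region held a median of 47.0, 47.9 and 47.7% in DMSO replicates 1, 2 and 3 and of 42.8, 42.3 and 45.5% in the SGC0946 replicates. The 3 SGC0946 values lay below the 3 DMSO values, at 43.5 ± 1.72% against 47.5 ± 0.482% (SD, n = 3). When counts were first summed over genes, so that genes with many counts weigh more, the share was 52.2, 52.9 and 52.6% with DMSO and 51.2, 49.8 and 53.9% with SGC0946. These sums overlapped between the groups.

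**Figure D1:**
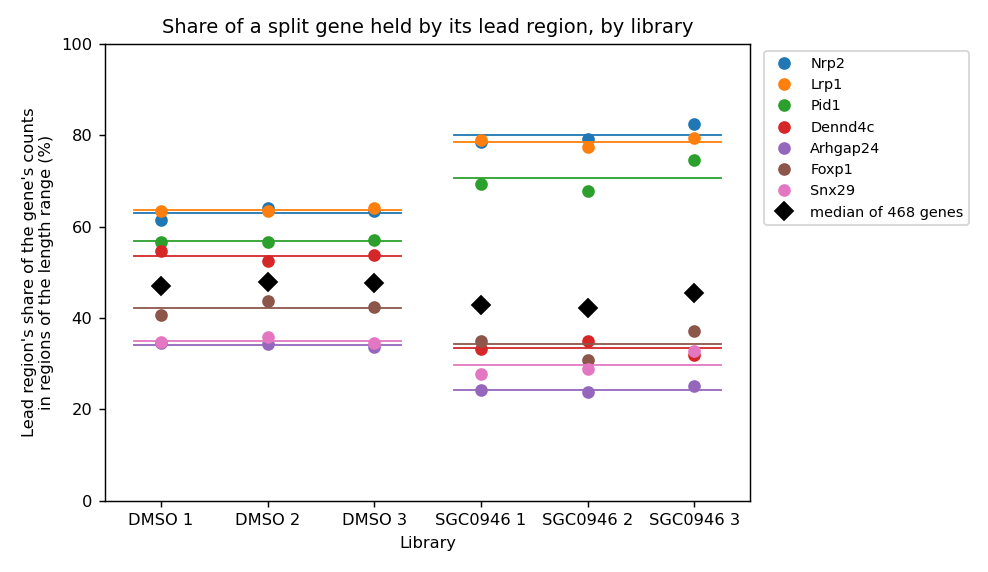
Share of a split gene's counts in regions of the length range (%, vertical axis) held by its lead region in each library (horizontal axis). Black diamonds are the median of the 468 genes, coloured points 7 named genes and lines their group means. The diamonds sit at 47.0 to 47.9% with DMSO and at 42.3 to 45.5% with SGC0946, while Nrp2, Lrp1 and Pid1 go up and Dennd4c, Arhgap24, Foxp1 and Snx29 go down.

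Gene by gene, the lead region kept less than the rest of the gene in 178 split genes and more in 24, and in 266 the test made no call (edgeR quasi-likelihood test of the interaction of region and treatment, adjusted p under 0.05 over all 3470 genes with a pair of regions to compare). Over all 3470 genes the shares called were 13.1% for lead lower and 5.85% for lead higher. The log2 difference, which is the log2 change of the lead minus that of the summed other regions, had a median of -0.29 in split genes (middle 50% from -0.46 to -0.10) and was negative in 397 of 468. The lead's share in all 3 SGC0946 libraries was below all 3 DMSO libraries in 232 genes and above in 30, against 24.8% and 8.76% of all genes tested. In 206 genes the groups overlapped. The lead is defined by a high mean count, to which DMSO libraries give most of the counts, and this favours a high DMSO value in the lead. With leads taken from DMSO replicate 1, which was then left out, 171 were lower and 21 higher, and with leads taken from SGC0946 counts 165 and 28.

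The number of calls rests in part on single libraries and on the tool. Leaving out SGC0946 replicate 1 or 2 brought the lower calls to 95 and 93, and no gene changed to the opposite call. The DESeq2 interaction test gave 70 lower and 13 higher, and subtraction of the density of the sparsest regions gave 80 lower and 17 higher, with a median difference of -0.43.

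The direction of the difference went with the density of the lead region. Leads were classed by their counts per kb in DMSO replicate 1 alone. In the 128 genes with a lead under 60 counts per kb, 15 leads were lower and 0 higher (median difference -0.21). In the 237 genes with 60 to 120, 130 were lower and 2 higher (median -0.37), and in the 83 with 120 to 240, 32 were lower and 10 higher (median -0.16). In the 20 genes with 240 or more, 12 were higher and 1 lower, and the median was 0.44. These 20 leads kept a median of 19.7% of their DMSO counts and the other regions of the same genes 14.1%, whereas the 237 leads of 60 to 120 counts per kb kept 12.6% and their other regions 16.2%. Over all 468 genes lead density and difference showed little rank correlation (Spearman correlation 0.0726), since the difference first went down and then up. Lead and difference share the lead's DMSO counts.

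**Figure D2:**
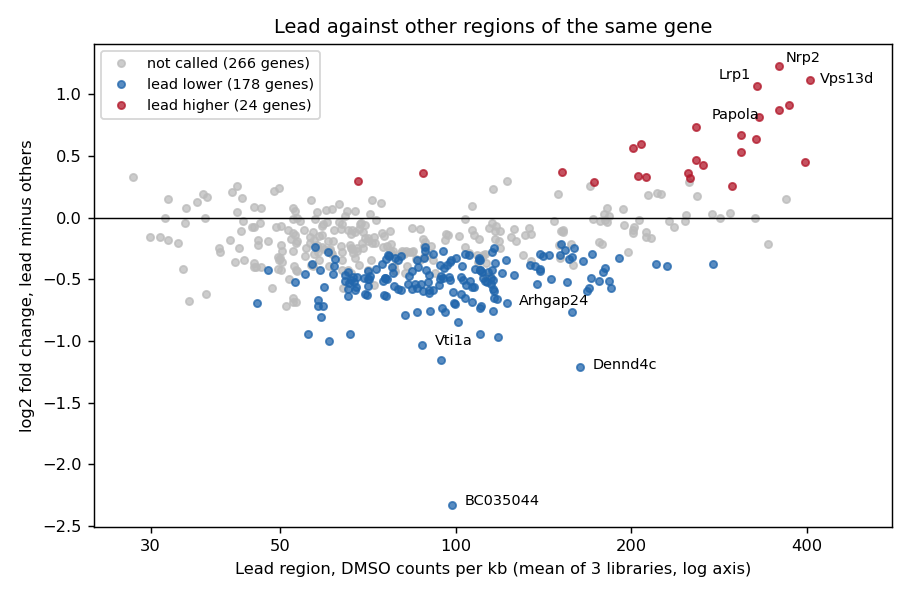
Log2 fold change of the lead region minus that of the gene's other regions (vertical axis) against the lead's density with DMSO in counts per kb (horizontal log axis), 1 point per split gene. Blue points are the 178 genes with a lower lead, red points the 24 with a higher lead and grey points the 266 without a call. The red points lie mostly towards the right. By density in DMSO replicate 1, 12 of the 24 had 240 or more counts per kb, 10 had 120 to 240 and 2 had 60 to 120.

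Between regions of like count, leads and others kept about the same fraction. Regions were classed by their count in DMSO replicate 1, and the fraction kept was taken against DMSO replicates 2 and 3. For counts of 50 to 100 the median was 15.4% in 29 leads and 16.9% in 953 others. For 100 to 200 it was 15.0 and 15.5%, for 200 to 500 it was 13.9 and 14.0%, for 500 to 1000 it was 13.0 and 12.7%, and for 1000 to 2000 it was 12.2 and 12.1%. Below 50 counts, where 2871 of the other regions and 2 leads fall, the others kept 19.2%. The 113 leads of 2000 or more kept 12.1%, and 11 other regions reached that class. Up to 2000 counts the median fraction kept went down with the count in both kinds of region. In the leads of 2000 or more the median was close to that in the leads of 1000 to 2000 (12.1 and 12.2%). Their summed counts kept 14.7 ± 0.407% against 12.5 ± 0.647% in the leads of 1000 to 2000 (SD over 3 SGC0946 libraries). The medians of leads and others in one class differed by less than the spread of either.

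**Figure D3:**
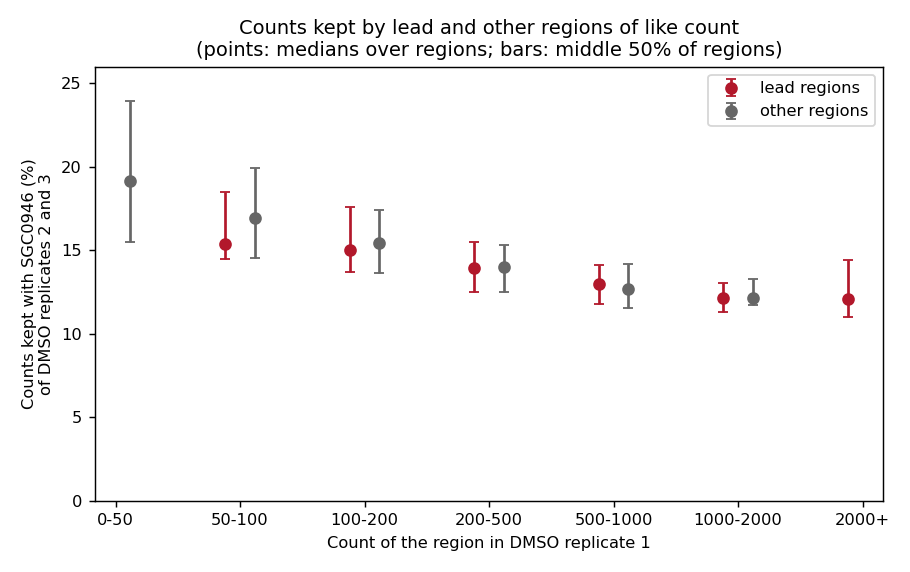
Counts kept with SGC0946 (%, relative to DMSO replicates 2 and 3, vertical axis) by class of the region's count in DMSO replicate 1 (horizontal axis), for lead regions (red) and other regions (grey) of split genes. Points are medians over regions and bars the middle 50%. From 50 to 2000 counts the red and grey bars overlap, and both go down from left to right.

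Lead regions gathered at the front of the gene, except in genes with a region of 30000 bp or more. RefSeq gave a strand and a start for 381 of the 468 genes. In these, 118 leads (31.0%) lay over an annotated start, and 198 (52.0%) had their midpoint in the first 10% of the gene's span. Of 4090 other regions 53 (1.30%) lay over a start and 9.39% in the first 10%. The median lead was 11.6 kb from the start of the span and the median other region 60.9 kb. Where the gene had no region of 30000 bp or more, 37.2% of 282 leads lay over a start and 64.9% in the first 10%. Where it had one, 13.1% of 99 leads lay over a start, 15.2% in the first 10% and 45.5% in the last 50%. In genes with 2 to 9 regions, 51.9% of 2465 leads lay over a start and 31.4% in the first 10%. Exons and introns were not separated, since the annotation used gives spans and starts.

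**Figure D4:**
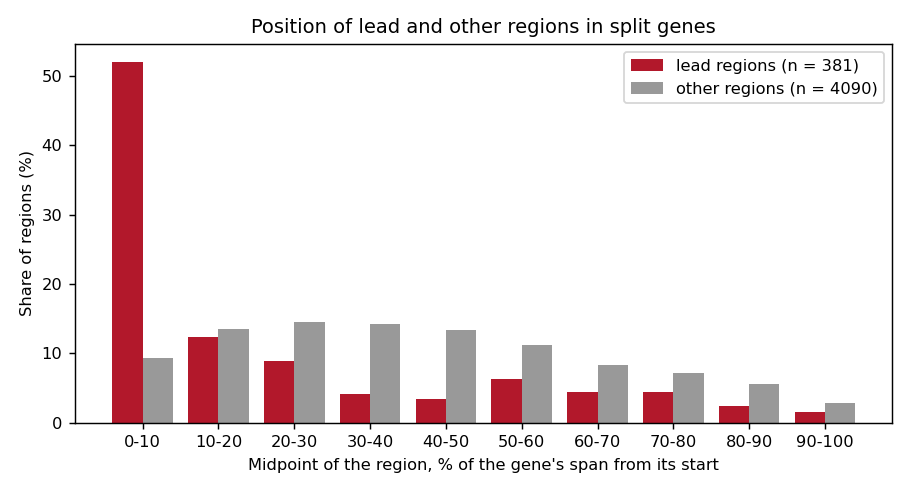
Share of regions (%, vertical axis) by the midpoint's position along the gene, in steps of 10% of the span from the start (horizontal axis), for 381 lead regions (red) and 4090 other regions (grey). The first step holds 52.0% of the leads and 9.39% of the others.

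Lower leads were called both over a start and elsewhere. Of the 118 leads over a start 58 were lower than the rest of their gene and 14 higher (median difference -0.30), and of the 263 leads elsewhere 83 were lower and 5 higher (median -0.27). The difference between these groups of genes was not tested. They also differed in density, at 113 and 70.8 counts per kb. Among the other regions the median log2 change in share lay between -0.06 and 0.11 in each of the 10 steps along the gene, and their density with DMSO between 37.2 and 41.2 counts per kb.

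Among genes with a lower lead, Dennd4c had the largest difference of those whose other regions held a mean of at least 50 counts. It encodes an exchange factor for the small GTPase Rab10. Its lead (chr4:86760378-86781373, 20996 bp inside the gene) had 3302, 3163 and 3837 counts with DMSO and 353, 369 and 320 with SGC0946, so it kept 10.1%. The other 8 regions together had 2729, 2860 and 3305 counts and then 711, 688 and 682, so they kept 23.4%. Most of that sum comes from a region over the start (chr4:86748523-86755151, 6629 bp), which was denser than the lead, at 414 against 164 counts per kb, and had 2546, 2656 and 3033 counts and then 662, 624 and 647. The lead's share of the gene went from 53.7 ± 1.12% to 33.3 ± 1.49% (SD, n = 3) with no overlap, and the log2 difference was -1.21 ± 0.08 (SE, adjusted p = 1.09e-22). Had the lead been chosen by counts per kb, the start region would have led and the difference would have been 1.11.

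Among other genes with a much lower lead, Vti1a, Calcrl and Fbxl17 had few counts outside the lead. In Ppargc1b and Arhgap26 the other regions had means of 357 and 241 counts with DMSO, beside 468 and 226 in the lead. Vti1a, which encodes a SNARE protein of Golgi and endosome traffic, had 778, 870 and 987 counts in its lead over the start (chr19:55313137-55323155) and 107, 97 and 93 with SGC0946. Its other 4 regions had 97, 84 and 122 counts and then 26, 20 and 24, for a log2 difference of -1.04 ± 0.24 (SE, adjusted p = 0.000699). The groups did not overlap in the lead's share, but the lead also overlaps Zdhhc6, and among regions over a single coding gene the difference was 0.16. Mast2, a kinase tied to microtubules, kept 12.3% in its lead over the start and 21.4% in its other 6 regions (-0.79, adjusted p = 0.000403). Calcrl, the receptor subunit for adrenomedullin and CGRP, went the same way (-0.94), as did Fbxl17, an F-box substrate adaptor of ubiquitin ligases (-0.85). Both calls were lost when regions under a mean count of 20 were left out (adjusted p = 0.102 and 0.14). Vti1a could not be compared under that setting, since all 4 of its other regions had a lower mean. Ppargc1b, which encodes the metabolic coactivator PGC-1β, kept 10.0% in the lead and 19.7% in the rest (-0.97, adjusted p = 2.94e-05), and each of its 8 other regions kept more than the lead. Arhgap26, a GTPase-activating protein, kept 14.0 and 27.0% (-0.94, adjusted p = 0.000991), and this call was lost with DESeq2 (adjusted p = 0.0525).

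Fam120a and Map3k9 made the list on few counts. The lead of Fam120a, which encodes an RNA-binding protein, had 122, 106 and 118 counts and then 8, 7 and 12 (difference -1.0, adjusted p = 0.0234). The call was lost without SGC0946 replicate 1 (adjusted p = 0.141) or 2 (0.184), and with regions of any length, which bring in the gene's broad region, the difference was 0.51. The lead of Map3k9, a kinase of the JNK cascade, had 103, 71 and 114 counts and then 10, 15 and 5 (difference -0.95, adjusted p = 0.0189). Its call was lost without SGC0946 replicate 1 (adjusted p = 0.0566) or 3 (0.23) and with the DESeq2 interaction test (adjusted p = 0.114). With the lead chosen by counts per kb the difference was 0.07.

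Nrp2 had the largest difference in the other direction. It encodes neuropilin-2, a co-receptor for semaphorins and VEGF. Its lead over the start (chr1:62702153-62720356, 18204 bp) had 6218, 6234 and 7067 counts with DMSO and 1700, 1612 and 1769 with SGC0946 and kept 26%. The 6 regions behind it had 3880, 3487 and 4070 and then 466, 426 and 377 in sum and kept 11.1%, and each of the 6 kept less than the lead. The lead's share rose from 63.1 ± 1.32% to 80.0 ± 2.12% (SD, n = 3) without overlap, for a log2 difference of 1.23 ± 0.07 (SE, adjusted p = 5.55e-25). The lead is not the longest region, and with the region of 21102 bp behind it as the lead the difference was -1.15.

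Lrp1 encodes a large endocytic receptor of the LDL receptor family that takes up lipoproteins and cell debris. Its lead over the start (chr10:127605651-127621506, 15856 bp) had 5034, 4949 and 5610 counts and then 1275, 1198 and 1255, and kept 23.9%. The other 11 regions had 2906, 2860 and 3136 counts and then 340, 348 and 326, and kept 11.4%. The lead's share was higher in every SGC0946 library (78.6 ± 0.99% against 63.6 ± 0.436%, SD, n = 3), with a log2 difference of 1.07 ± 0.07 (SE, adjusted p = 3.22e-21). Density with DMSO went from 328 counts per kb in the lead to 157 in the region behind it and 53.0 at 53.3 kb from the start. With SGC0946 these regions had 78.4, 18 and 4.83. Pid1, which encodes an adaptor that binds the tail of LRP1, had a lead that kept 23.8% and 13 other regions that kept 13.0% (difference 0.87, adjusted p = 4.81e-17). It was -0.56 with regions of any length and -0.67 with the longest region as lead.

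**Figure D5:**
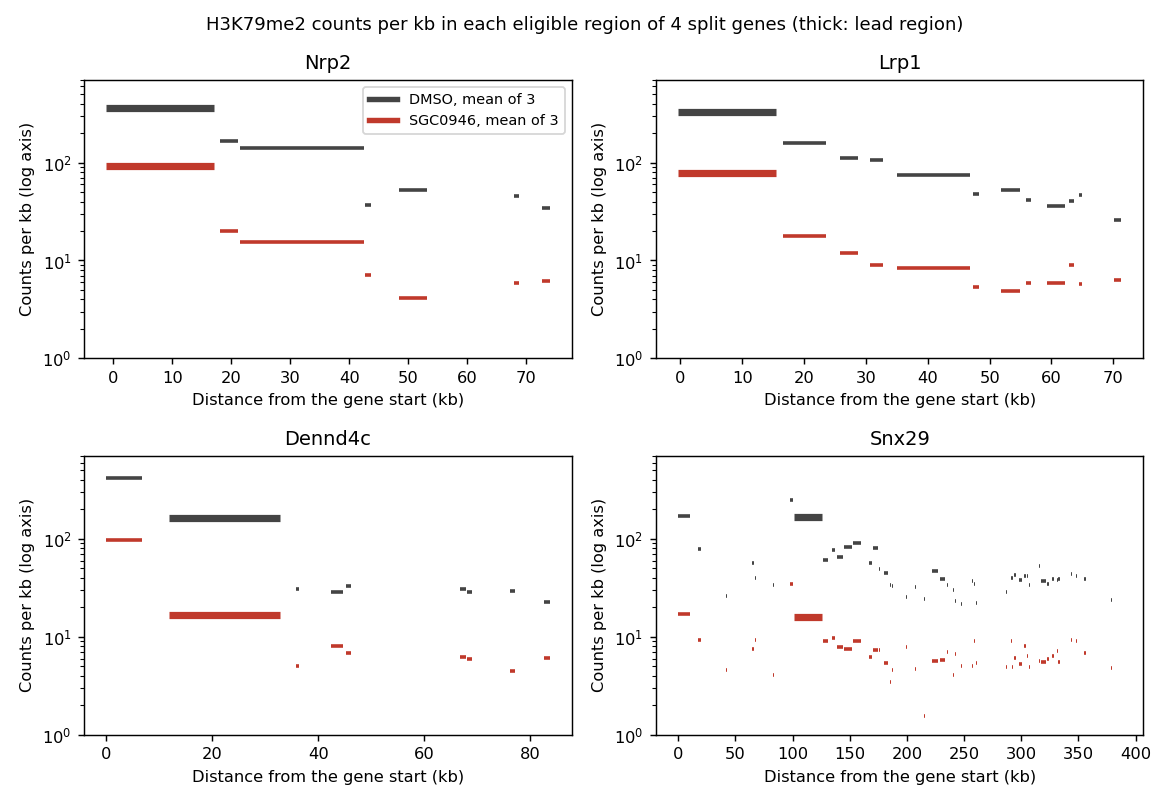
Density of H3K79me2 (counts per kb, vertical log axis, mean of 3 libraries) of each region used in Nrp2, Lrp1, Dennd4c and Snx29, by distance from the gene start in kb (horizontal axis), with DMSO in dark grey and SGC0946 in red and the lead drawn thick. In Nrp2 and Lrp1 the gap between grey and red is narrower in the lead than behind it, and in Dennd4c it is narrower in the start region than in the lead.

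Among the other genes with a higher lead, those named here had leads of 258 to 373 counts per kb with DMSO. Myo5a, a myosin that carries vesicles along actin, kept 22.4% in the lead and 11.9% elsewhere (0.92, adjusted p = 2.9e-07), but also has a broad region, and the difference was -0.58 with regions of any length. Nckap1l, the blood cell subunit of the WAVE complex that drives actin branching, kept 18.8 and 11.3% (0.73, adjusted p = 3.61e-08), and each of its 9 other regions kept less than the lead. Birc6, a very large ubiquitin ligase that blocks apoptosis, kept 20.4 and 12.8% (0.67, adjusted p = 2.55e-10). In these 3 genes the lead's share in every SGC0946 library was above that in every DMSO library.

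The highest lead counts belonged to Vps13d, Fli1, Papola, Lhfpl2 and Map3k3. Vps13d encodes a bridge-like lipid transfer protein. Its lead had 11175, 11380 and 12935 counts and then 3853, 3435 and 3481 (30.3% kept), against 14.0% for its other 15 regions and a log2 difference of 1.12 ± 0.07 (SE, adjusted p = 1.7e-23). This lead lies 287 kb from the start and also overlaps Dhrs3, a retinal reductase gene, so its counts cannot be credited to Vps13d alone, and among regions over a single coding gene the difference was -0.39. Papola, the nuclear poly(A) polymerase, had 7525, 7690 and 9021 counts over its start and then 2458, 2457 and 2479, the highest fraction kept of any lead (30.5%), while its other 5 regions had 191, 171 and 221 and then 33, 41 and 27. Its log2 difference was 0.82 ± 0.17 (SE, adjusted p = 0.000172), a call lost with background subtracted (adjusted p = 0.0985).

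Fli1, an ETS transcription factor of blood cells, had 9826, 10001 and 11526 counts in its lead and then 2200, 2010 and 2078, and the lead held 97.0 ± 0.212% and 97.8 ± 0.457% of the counts in regions of the length range (SD, n = 3), which leaves out the broad region of this gene. The call of a higher lead (0.45, adjusted p = 0.0241) was lost without DMSO replicate 1 (0.0703), SGC0946 replicate 1 (0.12) or 3 (0.155). It was also lost with the DESeq2 interaction test (adjusted p = 0.208), and with the broad region of Fli1 included the difference was -0.64. Map3k3, which encodes the kinase MEKK3, kept 18.3% in the lead and 13.6% in the rest (0.43, adjusted p = 0.000257), and its call was lost with DESeq2 (adjusted p = 0.0598). Lhfpl2, a tetraspan membrane protein gene, kept 19.6 and 17.7% and was not called (0.15 ± 0.09 SE, adjusted p = 0.269), and its lead shares overlapped between the groups.

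In the genes with the most regions the lead held a minor part of the counts. Snx29, a sorting nexin gene, had 3821, 3887 and 4406 counts in its lead (chr16:11424138-11448567), which lies 113 kb from the start, and 347, 411 and 407 with SGC0946. The lead kept 9.62% and the other 54 regions 12.2% (difference -0.35 ± 0.08 SE, adjusted p = 0.000343), and 50 of the 54 kept more than the lead. The call was lost with the DESeq2 interaction test (adjusted p = 0.0893) and with background subtracted (0.0713). The region over its start kept 10.0%. Chosen by counts per kb, another region led and the difference was 0.29. Foxp1, a forkhead factor that acts in monocytes and lymphocytes, kept 11.0% in the lead and 15.4% in its other 27 regions (-0.49 ± 0.09 SE, adjusted p = 2.33e-05). Its lead lies over an annotated start, and the lead's midpoint is 500.1 kb from the start of the gene's span.

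Arhgap24, which turns off the GTPase Rac, had 1023, 1066 and 1183 counts in its lead and then 106, 114 and 99, and 1938, 2040 and 2337 and then 331, 366 and 296 in its other 35 regions. The lead's share was 34.2 ± 0.491% with DMSO and 24.4 ± 0.662% with SGC0946 (SD, n = 3) without overlap, for a difference of -0.69 ± 0.11 (SE, adjusted p = 7.32e-07). Of its other regions 33 kept more than the lead. Cadm1, an immunoglobulin-type adhesion molecule, was not called (-0.16 ± 0.11 SE, adjusted p = 0.36). Neither was Cdk14, a kinase that pairs with membrane-bound cyclin Y (0.20 ± 0.08 SE, adjusted p = 0.0706), which passed without SGC0946 replicate 2 (adjusted p = 0.00776). In both the lead shares overlapped.

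Gene groups are given by counts beside the 468 split genes (178 lower, 24 higher, median -0.29). Of 41 chromatin regulators and elongation factors 13 are split, with 6 lower and 0 higher (median -0.31). The 6 are the demethylase gene Kdm4c (-0.54), the deacetylase genes Hdac4 (-0.48) and Hdac9 (-0.31), Arid1b (-0.39), a subunit of the BAF remodelling complex, the remodeller gene Chd9 (-0.28), and Mllt10 (-0.27), whose product binds DOT1L. Setd2, the H3K36 methyltransferase gene, was not called (0.18, adjusted p = 0.229).

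Other groups held leads of both kinds. Of 30 macrophage transcription factors 9 are split, with Foxp1 and Elf1 (-0.42) lower, Ikzf1 (0.33) and Fli1 higher and 5 not called, among them Runx1 (-0.06) and Mitf (-0.16). Of 28 adhesion, scavenging and phagocytosis genes 6 are split, and here the integrin gene Itgb5 was lower (-0.60) while Lrp1, the integrin gene Itgav (0.57) and Adgre1 (0.36) were higher. The leads of Lrp1, Itgav and Adgre1 had 328, 201 and 250 counts per kb with DMSO. Of 26 endosome, lysosome and autophagy genes 10 are split. The SNARE gene Stx8 (-1.16), Tbc1d5 (-0.59), which regulates retromer, Vps13b (-0.42), Snx29 and Uvrag (-0.28) were lower, and Lyst (0.47), the gene of lysosome-related organelle size, and Vps13d were higher. Stx8 had only 56, 30 and 51 counts with DMSO outside its lead.

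Of 35 lipid synthesis, uptake and transport genes 31 had a region and 1, Lrp1, is split, beside 468 of the 8548 coding genes with a region.

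In genes with 2 to 9 regions the leads of high density were also those called higher most often, and the course over density was not tested against that in split genes. Of 3002 such genes with a pair of regions to compare, 276 (9.19%) had a lower and 179 (5.96%) a higher lead, with a median difference of -0.20. The median standard error of the difference was 0.296 in these genes and 0.134 in split genes. The difference between both kinds of gene was not tested. With a lead under 60 counts per kb 25 of 697 were lower and 4 higher (median -0.18), with 60 to 120 144 of 1055 were lower and 0 higher (median -0.32), with 120 to 240 101 of 976 were lower and 56 higher (median -0.17), and with 240 or more 6 of 274 were lower and 119 higher (median 0.40). At the limit of 10 regions, the 77 genes with exactly 10 had a median of -0.33 and the 95 with exactly 9 a median of -0.23.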

How the data were processed

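The authors deposited 1 table of raw read counts for regions shared by 3 DMSO and 3 SGC0946 H3K79me2 ChIP-seq libraries of mouse macrophages, and the values show no scaling. The build was mm10, and the tools named in the submitters' processing notes are R 3.6.3, ChIPseeker 1.20.0, HOMER 4.11.1, HISAT2 and bedtools 2.27.0. Their roles, how regions were called, and the treatment of duplicates and of reads that map to several places are not given in the sources used here, and each could change the counts. Totals over the regions of the table, 2.95 to 3.13 M with SGC0946, limit the precision of small regions. The replicates are called biological, but no label ties them to separate mice, and p-values then measure the spread between these libraries, which may be technical.

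Region starts were read as zero-based and are given 1-based. Regions were assigned to RefSeq coding genes of GRCm38.p6, and strand and start came from a RefSeq promoter table, which held 381 of the 468 genes. A region was over a start when it overlapped the window from 250 bases before to 50 after any start in that table. Distance was taken from the outer end of the span to the midpoint of the region. The fraction kept is the ratio of the mean SGC0946 count to the mean DMSO count, unscaled.

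The tests used the quasi-likelihood functions of edgeR 4.0.16 (R 4.3.3) after filterByExpr, with Benjamini-Hochberg adjustment over all regions or genes at a threshold of 0.05. Regions were tested once scaled to the library's total over the regions of the table and once unscaled. The biological coefficient of variation was 3.57%. For each gene with 2 or more regions of the length range, the count of the lead and the summed count of the other regions in the 6 libraries (12 values) were fitted with the library as a block, and the interaction of lead and treatment was tested. Standard errors were computed as the fold change divided by the root of its F statistic. Alternatives used limma 3.58.1 on log ratios (pseudocount 0.5) and DESeq2 1.42.0. The scripts, in Python 3.11.15 with pandas 2.3.3, numpy 2.4.6 and matplotlib 3.10.9, were tested on simulated data.

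The members, gene lists, tests and named genes were chosen with earlier results of these data known. Named genes were the 5 with the most regions, the 5 with the highest lead count, and the 8 highest and 8 lowest differences among called genes with a mean of at least 50 counts outside the lead and no overlap of lead share between the groups, together with members of the gene lists. The results of 2 of the lists are not reported here. Mast2 and Map3k3 were also named for their promoters, which were the first 2 of each direction and of lead count whose lead lies over the start. No sequence of chromosome 18 is printed.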

Additional observations from a re-analysis of the deposited data

How the results depend on the processing

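Counts of lower leads in split genes (178) fell to 70 with the DESeq2 interaction test, to 80 with the density of the sparsest regions subtracted, and to 93 to 176 when 1 library was left out. They rose to 233 with regions of any length, and to 193 of 462 genes where the other regions had a mean of at least 50 counts. Higher leads (24) came to 13 with DESeq2 and to 41 with regions of any length. With 8 or more regions per gene there were 40 higher leads, and with 15 or more 108 lower and 6 higher, both from other sets of genes. The median difference (-0.29) was -0.43 with background subtracted. Under the settings that keep the lead, no gene changed to the opposite call. Redefining it turned 15 calls with regions of any length, 8 with the lead by length, 5 by counts per kb, and 2 each by SGC0946 counts, by DMSO replicate 1 and with regions over a single coding gene, since another region then leads. Named genes that turned were Fli1 (-0.64), Fam120a (0.51), Myo5a (-0.58) and Pid1 (-0.56) with regions of any length, Snx29 (0.29), Dennd4c (1.11) and Map3k9 (0.070) with the lead by counts per kb, Nrp2 (-1.15) and Pid1 (-0.67) by length, Dennd4c (1.11) and Map3k9 (0.32) by SGC0946 counts, and Vps13d (-0.39) and Vti1a (0.16) with regions over a single coding gene.

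The median lead share of counts in regions used (47.5% with DMSO, 43.5% with SGC0946) was 43.0 and 38.6% by counts per kb, 45.3 and 41.6% by length, 54.8 and 49.1% with regions of any length, 55.2 and 48.0% with background subtracted (difference -7.19 points), 52.5 and 48.1% with 8 or more regions and 41.3 and 35.6% with 15 or more, and 46.6% with DMSO for regions over a single coding gene. It was lower with SGC0946 in each. In share of the library, 156 higher and 709 lower regions became 277 and 465 with TMM, 295 and 427 with DESeq2 size factors, and 102 and 363 with the DESeq2 Wald test. Rises were 49 where the mean count reached 50, 62 with scaling to the sparsest 25% of regions, and 94 to 197 when 1 library was left out. On unscaled counts all 1947 regions whose mean count reached 50 fell, and 0 to 1 rose without 1 library.

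Same-numbered DMSO and SGC0946 libraries deviated together at correlations of 0.0074, -0.0584 and -0.00064, against -0.0465 to 0.0457 for libraries of unlike number. Sampling noise in regions with few counts can hide a pairing, so these values cannot tell whether the numbers pair the libraries. With a replicate block 149 regions were higher and 682 lower in share and 5448 fell unscaled, and limma on log ratios gave 147 lower and 20 higher leads without and 173 and 23 with the block. Without a count filter the calls between lead and others were the same, because every split gene passed the filter. The low SGC0946 counts limit genes with few counts outside the lead. The background subtracted is the density of the sparsest regions, a stand-in, since the input library was not analysed here.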

Other observations

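The pieces of split genes that the length limits leave out were denser or sparser than those described. The 138 regions of 30000 bp or more, found in 121 split genes, had a median of 158 counts per kb with DMSO and 19.4 with SGC0946 and kept 12.6%. Of these, 116 were lower and 16 higher in share of the library (edgeR, adjusted p under 0.05), with a median log2 change of -0.44. Over a start lay 60% of the 110 with a known strand. Of the 2555 regions of 500 bp, 1050 passed the count filter, and 90 of them were higher and 1 lower in share, with a median of 0.41. These small regions kept 21.4% at 28.7 counts per kb with DMSO, where the sparsest 5% of all regions had 19.8 to 24.3.

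Split genes without a broad region had 150 lower and 18 higher leads of 347, and those with one had 28 and 6 of 121. The median difference was -0.31 and -0.22. The difference between these was not tested.

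BC035044 had the most negative difference of all split genes (-2.33 ± 0.23 SE) and was singled out after its value was seen, since its other regions held a mean of fewer than 50 counts. Its lead, which also overlaps Clec2i, had 448, 465 and 501 counts with DMSO and 98, 78 and 79 with SGC0946. The other regions had 49, 37 and 57 and then 32, 48 and 50, so that they kept 90.9%. These counts of the other regions overlapped between the groups, whereas the lead's share of the gene did not.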
